A study of Mus musculus with 21 samples.

Results

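Embryoid bodies are free-floating aggregates in which pluripotent stem cells, once LIF is withdrawn, differentiate spontaneously into derivatives of the 3 germ layers. Day 16 embryoid bodies grown from induced pluripotent stem (iPS) cells were compared here with the undifferentiated iPS cells. Members were taken from the sample labels: 3 iPS embryoid body (iPS EB) arrays and 3 undifferentiated iPS arrays, 6 of the 21 arrays of the series. Both groups came from 1 line, αPIG TiB7.4, and its 3 replicates were at passages 5, 7 and 8 in each group. The iPS EB were whole aggregates at day 16 of spinner flask differentiation that received no puromycin. The undifferentiated iPS cells were grown with LIF on mouse embryonic fibroblast feeders inactivated with mitomycin C. The αPIG transgene, carried by every stem cell sample, is known from its published description to place puromycin resistance and a green fluorescent protein under the cardiac α-myosin heavy chain promoter. The other groups set beside these were 3 iPS cardiomyocyte (CM) arrays, from puromycin-selected cells (8 μg/ml) of the same day, and 3 day 16 ES EB and 3 undifferentiated ES arrays of the αPIG D3 line. There were also 3 arrays of tail tip fibroblasts from mice aged 8 weeks, labelled as passages 2, 3 and 4. They are technical replicates in the series' design text, although the labelled passages differ. The series' design text calls the 3 samples of each stem cell group independent biological replicates.

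Pluripotency is held by a small set of transcription factors (Pou5f1, Sox2, Nanog and their partners). When differentiation begins, these fall, epiblast-like cells pass through a primitive streak-like state marked by Eomes and Mesp1, and mesoderm, endoderm and neural programs follow. Beating cardiac muscle is one of the tissues that mouse embryoid bodies form.

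Levels are log2 intensities after background correction and quantile normalization, with an offset that compresses differences between dim probes; undetected probes lie near 4.1 to 4.5. A detection p under 0.01 was reached by 16543 to 17600 probes on the iPS EB arrays and by 15560 to 15884 on the iPS arrays, of 45281. Across the 21047 tested probes, pairs of iPS EB arrays correlated at 0.981 to 0.985 and pairs of iPS arrays at 0.986 to 0.994, while iPS EB and iPS arrays correlated at 0.923 to 0.955. The number of arrays limits the precision of every value.

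Many genes differed between iPS EB and iPS cells. By limma's moderated test, 3961 probes (18.8% of those tested) were higher and 3943 (18.7%) lower in iPS EB at an adjusted p under 0.05. A change of 2-fold or more upward was called for 1220 probes (5.8% of those tested) and downward for 895 (4.25%), together 2115 (10%). The 3 iPS EB and 3 iPS values did not overlap for 25% of probes with iPS EB above and 25.1% with iPS EB below. At the gene level, with the brightest probe taken for each of 11501 genes, 2489 (21.6%) were higher and 2247 (19.5%) lower, with a median log2 change of 0.01. The split depends on the scaling: with arrays scaled to a common median, the median probe lay 0.247 log2 units higher in iPS EB, and 4701 probes were called higher against 667 lower. All changes below are relative to the quantile scaling. Detection gives a view without scaling: 890 probes (1.97% of 45281), for 666 genes, were detected on all 3 iPS EB arrays and no iPS array, and 253 (0.559%), for 200 genes, on all 3 iPS arrays and no iPS EB array.

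**Figure D1:**
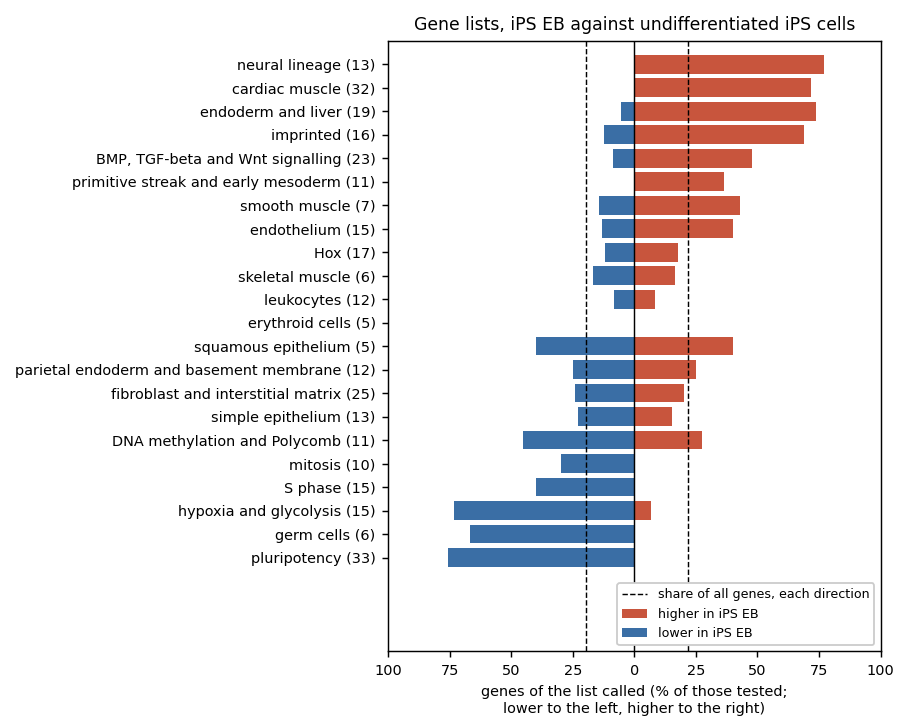
Share of the tested genes of each list (number in brackets) called higher in iPS EB, to the right, or lower, to the left, with the shares of all 11501 genes as dashed lines. Neural, cardiac, endodermal and imprinted genes lie furthest to the right, and pluripotency genes furthest to the left, with 25 of 33 lower.

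Pluripotency genes were lower in iPS EB, but most stayed far above background. Of 37 listed genes, 35 had a probe on the array and 33 passed the filter. Of these, 25 (75.8%) fell in iPS EB and 0 rose, where 19.5% of all genes fell and 21.6% rose. The median log2 change was -1.05 against 0.01 over all genes. At an unadjusted p under 0.05, limma still placed 0 higher and 28 lower. Leaving out iPS EB replicate 3 gave 18 lower with a median of -0.69, leaving out iPS EB replicate 2 gave 30 with a median of -1.46, and median scaling of the arrays gave 14.

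Of the core factors, Pou5f1 and Sox2 fell and Nanog did not pass the test. Pou5f1 (Oct4), the factor without which the pluripotent state collapses, had levels of 9.36, 9.80 and 8.92 in iPS EB, against 11.01, 10.75 and 10.56 in iPS cells. The groups did not overlap, and the log2 change was -1.42 ± 0.24 (SE; limma, adjusted p = 0.0002). Nanog, a homeobox factor that stabilises self-renewal, had levels of 10.32, 10.77 and 9.54 in iPS EB, against 10.78, 10.94 and 10.96 in iPS cells. Its change of -0.68 ± 0.28 did not pass the test (adjusted p = 0.069), and leaving out iPS EB replicate 2, where it was brightest, gave -0.96 with an adjusted p of 0.0145.

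Sox2, the partner of Pou5f1 that is also a neural progenitor factor, had levels of 7.23, 7.20 and 6.82 in iPS EB, against 7.76, 8.21 and 7.74 in iPS cells. Its log2 change of -0.82 ± 0.30 passed narrowly (limma, adjusted p = 0.040) and passed no longer when any 1 of the 6 arrays was left out (adjusted p = 0.0557 to 0.153). Klf4, a zinc finger factor also used for reprogramming, had levels of 7.29, 7.50 and 5.84 in iPS EB, against 8.88, 8.59 and 8.76 in iPS cells. That is a log2 change of -1.87 ± 0.57 (limma, adjusted p = 0.015), and without iPS EB replicate 3, the lowest, it was -1.35 with an adjusted p of 0.0893. Neither of the 2 Myc probes was detected on an iPS EB or iPS array, so no level is given for this reprogramming factor.

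The largest falls within the list were in genes that mark naive pluripotent cells. Fbxo15, an F-box gene used as a reporter of reprogramming, had levels of 7.71, 8.14 and 6.99 in iPS EB, against 10.11, 10.42 and 10.48 in iPS cells, a log2 change of -2.72 ± 0.30. Dppa3 (Stella), a maternal and germline factor, had levels of 7.19, 7.29 and 6.50 in iPS EB, against 9.23, 9.57 and 9.63 in iPS cells, a change of -2.48 ± 0.28. Zfp42 (Rex1) had levels of 6.82, 7.65 and 6.22 in iPS EB, against 8.97, 9.35 and 9.61 in iPS cells, a change of -2.42 ± 0.37.
In none of these genes did the groups overlap. Klf5, a self-renewal factor, fell by 2.27 ± 0.41, and the adjusted p of all 4 lay at or below 0.00036 in limma. Lefty1, a target and inhibitor of Nodal signalling, fell by 2.05 ± 0.18 (limma, adjusted p = 3.1e-07).

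Other members fell less. Dppa5a, an RNA-binding protein of pluripotent cells, had levels of 13.11, 13.35 and 12.42 in iPS EB, against 13.73, 13.96 and 14.08 in iPS cells, a change of -0.96 ± 0.22. Esrrb, an orphan nuclear receptor of the naive network, had levels of 10.09, 10.87 and 8.37 in iPS EB, against 10.85, 11.39 and 11.22 in iPS cells. Its groups overlapped by 1 sample, iPS EB replicate 2, and its change of -1.38 ± 0.46 (limma, adjusted p = 0.027) passed no longer without iPS EB replicate 3 (-0.67, adjusted p = 0.171), iPS replicate 2 (adjusted p = 0.0872) or iPS replicate 3 (adjusted p = 0.0666). Dppa5a, Esrrb and Lefty1 were picked after their values were seen.

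**Figure D2:**
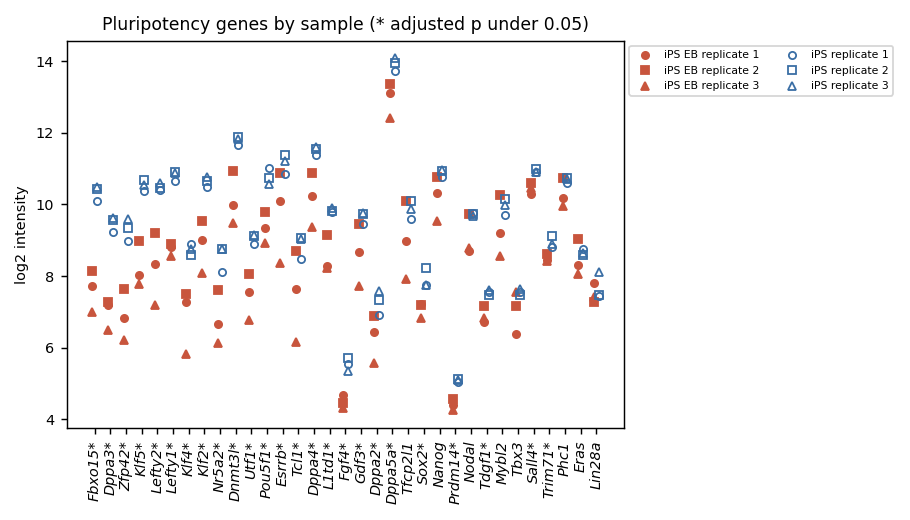
Log2 intensity of the 33 tested pluripotency genes in each iPS EB sample (filled, left) and each iPS sample (open, right), ordered by log2 change from the largest fall. The iPS EB triangles (replicate 3) are the lowest and the iPS EB squares (replicate 2) the highest of their group for most genes.

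In whole aggregates, fewer cells that express a gene and less RNA per cell cannot be told apart. The iPS CM arrays of the same day show how low these genes can go: of the 33 genes, 30 were lower in iPS CM than in iPS EB and 0 higher, with a median log2 difference of -3.31 (-3.07 with the 20 genes that no iPS CM array detected at their bound), where 29.6% of all tested probes were lower and 28.5% higher. For Pou5f1 the iPS CM level lay below that of iPS EB by a factor of at least 24.7, and for Nanog by at least 44.7. That comparison shares the iPS EB samples with the one above. The summed intensity of the list was 614 to 696 in iPS CM and 14736 to 31698 in iPS EB, with 43549 to 51321 in iPS cells.

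The Zfp42 promoter is shown because Zfp42 was among the largest falls of the list and is a known target of Pou5f1 in embryonic stem cells. The 250 bases before its start site (RefSeq, GRCm38.p6, chr8:43307010-43307259, minus strand) hold, in capitals, the octamer ATTTGCAT, searched on both strands.
Zfp42: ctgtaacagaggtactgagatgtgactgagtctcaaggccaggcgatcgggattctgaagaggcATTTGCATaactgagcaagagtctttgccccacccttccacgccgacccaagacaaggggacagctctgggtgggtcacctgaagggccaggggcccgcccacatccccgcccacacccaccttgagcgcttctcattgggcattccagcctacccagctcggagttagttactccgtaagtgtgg
The octamer was in 1.6% of the 32851 promoters of that length and in 1 of the 30 promoters matched to 23 pluripotency genes, which is Zfp42. The match describes these letters, and no factor was measured on them.

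Cardiac muscle genes held most of the largest rises. Of 34 listed genes, 32 were tested. Of these, 23 (71.9%) were higher in iPS EB and 0 lower, against 21.6% and 19.5% of all genes. Their median log2 change was 1.34, and at an unadjusted p under 0.05 limma gave the same counts. As 23 of the 32 were detected on no array of at least 1 group, the median with these at their lower bound, or at 0 where there is none, was 1.01. Of the 12 genes with the largest rises whose groups did not overlap, 7 belong to this list. In 5 of these 7 no iPS array detected the gene.

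The regulatory and essential myosin light chains were among the largest rises. Myl2, the ventricular regulatory light chain, had levels of 9.87, 9.65 and 10.59 in iPS EB, against 4.14, 4.14 and 4.19 in iPS cells. That makes it at least 41.7-fold higher in iPS EB, as a lower bound against the dimmest signal the iPS arrays could detect (limma, adjusted p = 1.9e-11). Myl3, the ventricular essential light chain, had levels of 10.08, 9.48 and 10.69 in iPS EB, against 4.48, 4.28 and 4.43 in iPS cells, at least 43.2-fold higher.

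The atrial isoforms rose as well. Myl7, the atrial regulatory light chain, had levels of 8.87, 8.16 and 9.80 in iPS EB, against 4.18, 4.16 and 4.35 in iPS cells, at least 19.6-fold higher. Myl4, the essential light chain of atria and of embryonic muscle, had levels of 10.92, 10.69 and 11.84 in iPS EB, against 5.59, 6.05 and 6.15 in iPS cells, a log2 change of 5.22 ± 0.29 (limma, adjusted p = 3.3e-09).

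Thin filament genes moved as much. Tnnc1, the troponin C of slow and cardiac muscle, had levels of 10.18, 9.53 and 11.11 in iPS EB, against 4.37, 4.41 and 4.37 in iPS cells, at least 49.3-fold higher. Actc1, cardiac α-actin, had levels of 10.31, 9.54 and 11.07 in iPS EB, against 5.29, 5.03 and 4.87 in iPS cells, a log2 change of 5.25 ± 0.34. Csrp3 (muscle LIM protein, at the Z-disc) had levels of 8.69, 8.07 and 9.71 in iPS EB, against 4.34, 4.21 and 4.20 in iPS cells, at least 18.0-fold higher. In all 3 genes, and in the 4 light chains above, iPS EB replicate 3 was the highest and iPS EB replicate 2 the lowest of its group. Myl1, the fast skeletal essential light chain, which belongs to the skeletal list, was also at least 12.9-fold higher in iPS EB.

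Cardiac transcription factors were uneven. Isl1, which marks second heart field progenitors, had levels of 7.78, 7.72 and 7.77 in iPS EB, against 4.31, 4.38 and 4.37 in iPS cells, at least 8.61-fold higher. Mef2c, a MADS-box activator of muscle genes, had levels of 6.74, 6.28 and 7.98 in iPS EB, against 4.75, 4.46 and 4.55 in iPS cells, a change of 2.41 ± 0.32. Nkx2-5 stayed close to background with 4.72, 4.71 and 4.95 in iPS EB, against 4.38, 4.30 and 4.32 in iPS cells, where no array detected it (at least 1.10-fold higher; limma, adjusted p = 0.0076).
Isl1 was the exception among the markers: it was 2.13 log2 units lower in iPS CM than in iPS EB. The other 31 of the 32 cardiac genes were higher in iPS CM, as were 28.5% of all tested probes. The median difference over the list was 3.63. Isl1, Mef2c and Nkx2-5 were picked after their values were seen.

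The 9 cardiac genes that were not called in iPS EB were Ldb3, Tnni3, Nppb, Nppa, Casq2, Gata4, Myh7, Smyd1 and Tbx5, and Casq2, Myh7, Smyd1 and Tbx5 were detected on no array of either group. Each of the 9 was higher in iPS CM than in iPS EB. For Tnni3, the troponin I of the mature heart, the difference was 4.86, beside levels of 4.60, 4.49 and 4.88 in iPS EB, against 4.22, 4.26 and 4.20 in iPS cells. The summed cardiac intensity was 113506 to 134571 in iPS CM and 5867 to 14585 in iPS EB, with 232 to 263 in iPS cells.

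Promoters of the genes with large rises are shown for the CArG box, the binding sequence of serum response factor, which is named here because it allows either A or T in its core. It was searched on both strands of the 250 bases before each start site, and occurred in 6 of the 36 promoters (16.7%) matched to 29 cardiac genes, for Actc1, Ldb3, Myl3, Myl7 and Myom1, against 1.47% of all 32851 promoters and 0 of the 30 pluripotency promoters. The 3 of these genes with the largest rises follow (RefSeq, GRCm38.p6), with Myl3 at chr9:110763428-110763677 on the plus strand, Myl7 at chr11:5898783-5899032 on the minus strand and Actc1 at chr2:114052876-114053125 on the minus strand; capitals mark the match.
Myl3: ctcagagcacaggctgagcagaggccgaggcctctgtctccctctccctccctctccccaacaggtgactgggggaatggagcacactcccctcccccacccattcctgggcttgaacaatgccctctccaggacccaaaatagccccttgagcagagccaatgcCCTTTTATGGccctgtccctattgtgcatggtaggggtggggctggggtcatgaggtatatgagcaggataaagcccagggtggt
Myl7: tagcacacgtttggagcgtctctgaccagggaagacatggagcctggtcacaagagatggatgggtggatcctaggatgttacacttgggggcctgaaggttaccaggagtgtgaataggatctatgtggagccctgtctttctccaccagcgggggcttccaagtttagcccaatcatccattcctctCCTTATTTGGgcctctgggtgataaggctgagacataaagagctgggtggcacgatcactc
Actc1: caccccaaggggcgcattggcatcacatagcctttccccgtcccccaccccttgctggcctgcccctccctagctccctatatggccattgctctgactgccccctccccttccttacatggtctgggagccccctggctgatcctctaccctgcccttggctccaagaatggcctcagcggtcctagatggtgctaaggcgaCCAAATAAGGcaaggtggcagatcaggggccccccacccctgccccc
The matches begin 85, 61 and 47 bases before the start site of Myl3, Myl7 and Actc1. Ldb3, which holds the sequence too, was among the 9 genes not called.

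Endoderm and liver genes rose in iPS EB, and the replicates differed widely. Of 19 tested genes, 14 (73.7%) were higher and 1 (5.26%, Amn) lower, against 21.6% and 19.5% of all genes. The median log2 change was 1.52 (1.41 with bounds for the 10 genes undetected in a group). On the array, 5 more did not pass the filter. Ttr, the thyroxine carrier made by visceral endoderm and liver, had levels of 7.16, 8.79 and 10.63 in iPS EB, against 4.23, 4.16 and 4.24 in iPS cells, at least 18.5-fold higher (limma, adjusted p = 6.8e-06). Afp, the fetal counterpart of albumin, had levels of 4.98, 6.20 and 7.14 in iPS EB, against 4.19, 4.28 and 4.21 in iPS cells, at least 2.74-fold higher. Both genes were highest in iPS EB replicate 3.

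The endodermal transcription factors were more even. Gata6, a zinc finger factor of primitive endoderm and heart, had levels of 8.98, 8.90 and 9.69 in iPS EB, against 6.54, 5.13 and 5.35 in iPS cells, a change of 3.52 ± 0.29. Foxa1, a pioneer factor of gut endoderm, had levels of 8.41, 7.35 and 7.84 in iPS EB, against 4.76, 4.75 and 4.76 in iPS cells, a change of 3.11 ± 0.19. Sox17, of definitive and visceral endoderm, had levels of 6.65, 7.61 and 6.45 in iPS EB, against 5.27, 4.48 and 4.54 in iPS cells, a change of 2.14 ± 0.23. The groups of these 3 genes did not overlap, and limma gave adjusted p-values of 2.2e-07, 8.4e-09 and 2.9e-06. Without iPS EB replicate 3, 11 of the 19 were higher, with a median of 0.76.

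Neural genes rose too, with 10 of 13 tested genes (76.9%) higher in iPS EB and 0 lower, against 21.6% and 19.5% of all genes. At an unadjusted p under 0.05 limma also gave 10 and 0. The median log2 change was 1.08 (0.96 with bounds for the 4 genes undetected in a group). Another 11 neural genes on the array did not pass the filter, among them Sox1, Pax6, Tubb3 and Neurod1, which were named after this was seen. Zic1, a zinc finger factor of the dorsal neural tube, had levels of 9.06, 7.01 and 6.97 in iPS EB, against 4.25, 4.20 and 4.47 in iPS cells, at least 8.16-fold higher (limma, adjusted p = 3.0e-06). Map2, a microtubule protein of dendrites, had levels of 8.94, 7.51 and 8.12 in iPS EB, against 6.22, 6.20 and 6.22 in iPS cells, a change of 1.97 ± 0.23. Dcx, a microtubule protein of migrating neurons, had levels of 6.68, 5.14 and 5.86 in iPS EB, against 4.15, 4.28 and 4.46 in iPS cells, at least 2.37-fold higher. Each was highest in iPS EB replicate 1, and without that replicate 6 of the 13 were higher. Ednrb, the endothelin B receptor of neural crest, was among the 12 largest rises, with levels of 9.36, 8.45 and 8.82 in iPS EB, against 4.88, 4.31 and 4.39 in iPS cells.

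Of 11 primitive streak and early mesoderm genes tested, 4 (36.4%) were higher in iPS EB and 0 lower, against 21.6% and 19.5% of all genes. At an unadjusted p under 0.05 limma gave 6 and 0. Mesp1, which marks the earliest cardiac mesoderm, had levels of 5.71, 6.31 and 7.12 in iPS EB, against 4.22, 4.23 and 4.19 in iPS cells, at least 3.32-fold higher (limma, adjusted p = 1.8e-06). Eomes, a T-box factor of the streak, had levels of 7.88, 8.18 and 8.79 in iPS EB, against 6.76, 6.16 and 6.48 in iPS cells, a change of 1.82 ± 0.20. Lhx1, a LIM-homeobox factor of anterior mesendoderm, had levels of 9.91, 10.26 and 10.16 in iPS EB, against 8.51, 6.78 and 7.06 in iPS cells, a change of 2.66 ± 0.36. Msx1 was the fourth, at 1.28 ± 0.30. Several streak genes were already well above background in undifferentiated iPS cells, most so in replicate 1: the list summed to 1928 to 3127 in iPS EB, against 1580, 732 and 813 in iPS cells.

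**Figure D3:**
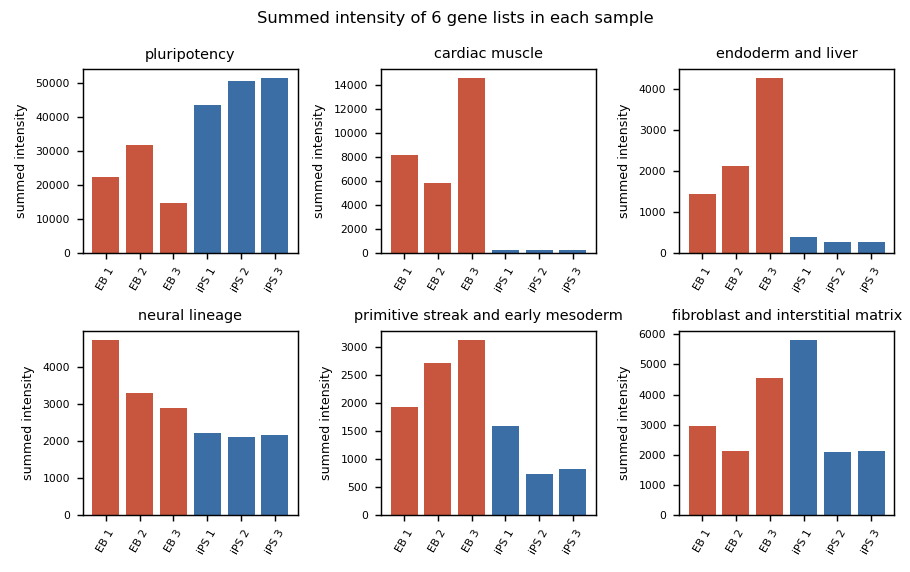
Summed intensity (linear, background-corrected) of 6 gene lists on each iPS EB array (left) and each iPS array (right), with every axis starting at 0. Among iPS EB, replicate 2 has the highest pluripotency sum (31698) and the lowest cardiac sum (5867), replicate 3 the lowest pluripotency sum (14736) and the highest cardiac sum (14585), and replicate 1 the highest neural sum (4735).

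The order of the 3 iPS EB replicates differed by list. In 29 of the 33 pluripotency genes (87.9%) replicate 2 was the highest of its group, and in 28 (84.8%) replicate 3 was the lowest; over all 11501 genes these shares were 36.2% and 32.2%. The order was turned in the cardiac list, where replicate 3 was highest in 28 of 32 genes (87.5%) and replicate 2 lowest in 24 (75%), against 34.2% and 34% of all genes. Replicate 1 was highest in 12 of 13 neural genes (92.3%), against 29.6% of all genes. Genes of 1 list share their samples and are not independent, and with 1 sample per replicate no test of these differences is possible. The median SD of a probe was 0.166 among iPS EB and 0.141 among iPS samples.

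Imprinted genes mostly rose in iPS EB. Dlk1, an imprinted Notch-family ligand of fetal tissues, had levels of 11.67, 11.81 and 12.23 in iPS EB, against 7.58, 6.83 and 6.89 in iPS cells, a log2 change of 4.81 ± 0.20 (limma, adjusted p = 9.9e-11). Igf2, the imprinted fetal growth factor, had levels of 13.14, 13.05 and 13.94 in iPS EB, against 10.77, 9.61 and 9.69 in iPS cells, a change of 3.35 ± 0.28. Mest, an imprinted hydrolase of mesoderm, had levels of 10.32, 9.57 and 10.48 in iPS EB, against 7.80, 8.17 and 8.13 in iPS cells, a change of 2.09 ± 0.30. Of 16 imprinted genes tested, 11 (68.8%) were higher and 2 (12.5%, Impact and Phlda2) lower, against 21.6% and 19.5% of all genes. The median was 1.04. Igfbp5, which binds insulin-like growth factors, had levels of 10.91, 9.52 and 10.65 in iPS EB, against 6.50, 5.84 and 5.63 in iPS cells, a change of 4.37 ± 0.35.

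Genes of glycolysis and hypoxia mostly fell. Of 15 tested, 11 (73.3%) were lower and 1 (6.67%) higher in iPS EB, against 19.5% and 21.6% of all genes. The median log2 change was -0.56. Median scaling left 3 lower and 1 higher, and leaving out iPS EB replicate 1 left 7 lower. Pfkp, a phosphofructokinase, had levels of 5.00, 5.58 and 5.06 in iPS EB, against 7.37, 8.01 and 7.68 in iPS cells, a change of -2.47 ± 0.28 (limma, adjusted p = 5.4e-06). Pfkl, another isoform of that enzyme, fell by 1.36 ± 0.19. The exception was Vegfa, the main growth factor of blood vessels, with 8.61, 8.18 and 7.74 in iPS EB, against 7.01, 6.00 and 6.32 in iPS cells, a change of 1.74 ± 0.33.

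The proliferation genes that were called were all lower in iPS EB, but most did not pass the test. Of 15 S phase genes, 6 (40%) were lower and 0 higher in iPS EB (7 lower and 1 higher at an unadjusted p under 0.05 in limma). Of 10 mitosis genes 3 (30%) were lower and 0 higher (5 and 0 unadjusted). Over all genes 19.5% were lower and 21.6% higher. Ccne1 (cyclin E1, which drives entry into S phase) had levels of 6.21, 6.59 and 6.36 in iPS EB, against 8.39, 8.57 and 8.79 in iPS cells, a change of -2.20 ± 0.18. Mcm2, of the replicative helicase, fell by 1.74 ± 0.14. With median scaling the S phase median was 0.05 in place of -0.31, with 2 genes lower and 1 higher, and the mitosis median was -0.07 with no gene lower; that scaling moved the median of all probes by 0.247. In iPS CM all 15 S phase and all 10 mitosis genes were lower than in iPS EB, as were 29.6% of all tested probes.

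Among chromatin genes (DNA methylation and Polycomb), 5 of 11 (45.5%) were lower and 3 (27.3%) higher, against 19.5% and 21.6% of all genes. Tet1, which oxidises methylcytosine, had levels of 8.47, 9.16 and 8.22 in iPS EB, against 10.19, 10.32 and 10.77 in iPS cells, a change of -1.81 ± 0.23 (limma, adjusted p = 1.5e-05). Of 12 germ cell genes on the array, 6 were tested, with 4 (66.7%) lower and 0 higher (the same at an unadjusted p under 0.05 in limma). The other 6 did not pass the filter: Ddx4, Sycp1, Sycp3, Mael, Hormad1 and Stra8. Tex19.1, which restrains retrotransposons in germ and pluripotent cells, had levels of 6.98, 7.12 and 6.72 in iPS EB, against 9.99, 10.56 and 10.58 in iPS cells, a change of -3.44 ± 0.15. Usp26, an X-linked testis-expressed deubiquitinase that is on no list, had levels of 4.54, 4.82 and 4.75 in iPS EB, against 9.22, 9.33 and 9.49 in iPS cells, a change of -4.64 ± 0.16. Its 3 iPS values were nearly equal and far from the iPS EB values.

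Among the 12 largest falls were several genes of secreted proteins. Mmp3 (stromelysin, a matrix protease) had levels of 4.19, 4.15 and 4.15 in iPS EB, against 10.52, 9.44 and 9.65 in iPS cells, at least 40.7-fold lower in iPS EB (limma, adjusted p = 1.4e-11). Cxcl1, a neutrophil-attracting chemokine, had levels of 4.24, 4.17 and 4.52 in iPS EB, against 10.27, 8.45 and 8.66 in iPS cells, at least 24.3-fold lower. Ccl7, a monocyte-attracting chemokine, had levels of 4.26, 4.31 and 4.39 in iPS EB, against 9.45, 7.56 and 7.71 in iPS cells, at least 13.2-fold lower. In these 3 genes iPS replicate 1 was the highest, and the iPS EB arrays were at background.

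In iPS cells, replicate 1 was also the highest for Mmp13 (a collagenase, at least 10.4-fold lower), Fbln2 (a matrix fibulin, -4.08 ± 0.34) and Inhba (an activin subunit, at least 9.0-fold lower). These genes were bright on the fibroblast arrays, with mean levels of 11.5 for Mmp3, 13.1 for Cxcl1, 12.1 for Ccl7, 12.9 for Mmp13, 12.9 for Fbln2 and 10.8 for Inhba. Those arrays also detected all 12 tested leukocyte genes, which summed to 23158 to 29921 there, against 406 to 538 in iPS cells. Which cells gave the signals on the fibroblast arrays was not tested. Of the 12 largest falls, 9 were brighter on the fibroblast arrays than in iPS cells and 8 were highest in iPS replicate 1. Of all 77 genes that fell at least 4-fold, 35 were brighter in fibroblasts than in iPS cells. In 38 of the 77, replicate 1 was the highest iPS sample. Of all 2247 genes that fell, these counts were 559 and 597. The same shares over all tested genes were not counted, so whether any of these counts exceeds them cannot be judged. Lox, a collagen cross-linking enzyme, had levels of 4.32, 4.37 and 4.58 in iPS EB, against 9.22, 6.99 and 7.01 in iPS cells, with 13.8 in fibroblasts.

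The marker list of fibroblasts and interstitial matrix gave a mixed count, with a median of 0.02. Of 25 tested genes, 5 (20%) were higher and 6 (24%) lower in iPS EB, near the 21.6% and 19.5% of all genes. Its summed intensity was 2953, 2121 and 4560 in iPS EB, against 5811, 2077 and 2128 in iPS cells and 49299 to 61736 on the fibroblast arrays. Of the 25 genes, 17 to 19 were detected on the iPS arrays and 24 on the fibroblast arrays. The median level of the 25 genes was 5.88, 5.24 and 6.98 in iPS EB, against 7.08, 5.92 and 5.94 in iPS cells. Col1a2, a chain of type I collagen and a member picked from the list, lay below that median, at 4.36, 4.41 and 4.54 in iPS cells. Its mean in fibroblasts was 10.2. Among the 5 higher genes were Lum, a matrix proteoglycan, and Col3a1, type III collagen (1.97 ± 0.25 and 1.79 ± 0.26). Lox, at the levels given above, is also a member of this list. The undifferentiated cells had been grown on feeders, which are embryonic fibroblasts, and the labels do not say how feeders were removed; the part of feeder RNA in these falls was not tested. Without iPS replicate 1 the list had 7 genes higher and 4 lower.

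The early response genes Fos and Fosb, subunits of the AP-1 factor, were also among the 12 largest falls. Fos had levels of 7.07, 6.74 and 6.58 in iPS EB, against 10.49, 10.19 and 10.27 in iPS cells, a change of -3.52 ± 0.73 (limma, adjusted p = 0.0011). Fosb was detected on no iPS EB array and was at least 15.5-fold lower in iPS EB, with 8.87, 8.19 and 8.38 in iPS cells. Both were bright in fibroblasts as well (12.5 and 10.7). The 2 remaining genes of the 12 were Krt42, a type I keratin (-4.02 ± 0.23), and Rgcc, a cell cycle regulator (-3.44 ± 0.28).

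**Figure D4:**
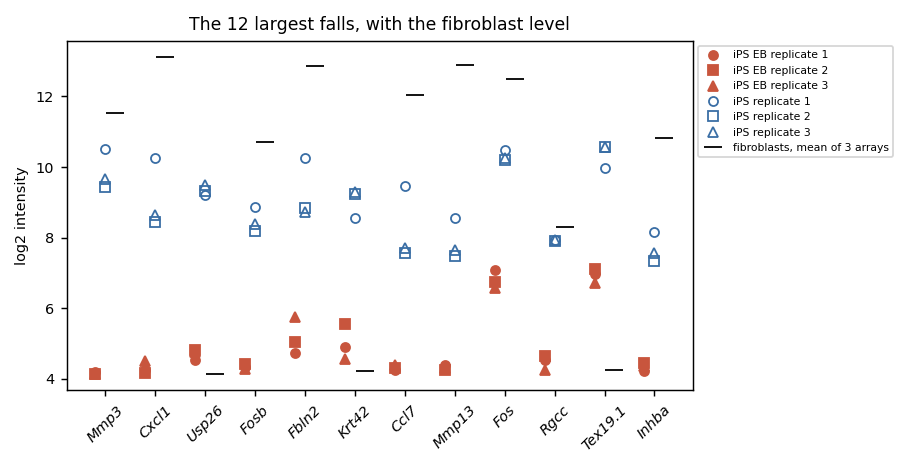
Log2 intensity of the 12 genes with the largest falls in iPS EB samples (filled, left), iPS samples (open, centre) and fibroblasts (black bar, mean of 3 arrays, right). Usp26, Krt42 and Tex19.1 are near background in fibroblasts, and the other 9 are brighter there than in iPS cells.

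Lists of further cell types gave mixed counts. Of 15 endothelial genes 6 (40%) were higher and 2 (13.3%) lower, where 21.6% and 19.5% of all genes were. Higher ones included Emcn, a sialomucin of veins and capillaries (at least 3.55-fold), and Flt1, a VEGF receptor (2.00 ± 0.25), while Pecam1 was at 4.49, 4.65 and 4.58 in iPS EB, against 4.45, 5.41 and 4.92 in iPS cells. Of 5 erythroid genes tested, limma called 0, with 1 lower at an unadjusted p under 0.05. Hbb-bh1, an embryonic globin, had levels of 5.36, 4.71 and 7.26 in iPS EB, against 4.23, 4.17 and 4.15 in iPS cells, and the difference did not pass (limma, adjusted p = 0.19). Of 12 leukocyte genes 1 was higher (Runx1, 0.91 ± 0.23) and 1 lower (Laptm5, -1.54 ± 0.22), and Ptprc (CD45) stayed at 4.17 to 4.22 in iPS EB, against 4.17 to 4.22 in iPS cells. Smooth muscle genes had 3 of 7 higher (42.9%) and 1 lower (Tagln, -1.22 ± 0.35, for which leaving out iPS replicate 1 gave an adjusted p of 0.0662 and leaving out iPS EB replicate 1 gave 0.0539), with Myocd, the coactivator of serum response factor, at least 3.62-fold higher. The skeletal list had Myl1 higher and Mylpf, the fast regulatory light chain, lower (-2.11 ± 0.25) among 6 genes.

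The same step was also measured in the ES line, from undifferentiated ES cells to day 16 ES EB, in separate samples. Of the probes tested there, 3491 (16.6%) rose and 3520 (16.7%) fell in ES EB. Across probes the change in the iPS line correlated with that in the ES line at 0.693 (21047 probes of the same arrays, which are not independent), and 4251 probes were called in the same direction in both lines against 140 in opposite directions. The difference of change (iPS EB minus iPS, less ES EB minus ES) was called for 657 probes as higher (3.12%) and for 785 as lower (3.73%). This count rests on the setting: it was 1442 in all (6.85%), 256 with median scaling, 684 with the other groups left out of the fit, and 906 without ES EB replicate 2.

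Cardiac genes were higher in EB of both lines, with 23 of 32 called in the iPS line and 20 in the ES line. Among all 11501 genes, 2489 were higher in the iPS line and 2174 in the ES line. Myl2, undetected in undifferentiated cells of either line, was at least 41.7-fold higher in iPS EB than in iPS cells and at least 31.8-fold higher in ES EB than in ES cells. Over all 11501 genes, the difference of change was called for 426 as higher and 491 as lower. Of the 32 cardiac genes, 1 had a called difference, Pln, the phospholamban of the sarcoplasmic reticulum. Pln had a mean level of 5.86 in iPS EB and 4.57 in ES EB and no detection in iPS or ES cells. Pluripotency genes fell in the ES line with a median of -0.66 and 12 of 33 called lower, against -1.05 and 25 in the iPS line. The difference itself was called for 4 genes that fell further in the iPS line (Zfp42 by -2.22, Fbxo15 by -2.24, Dppa4 by -1.30, Dppa2 by -1.63) and for Tdgf1, which fell less there (0.85); Dppa4, Dppa2 and Tdgf1 were picked after their values were seen. The summed pluripotency intensity was 14736 to 31698 in iPS EB and 27432 to 46941 in ES EB.

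Regulators of patterning were among the genes with a called difference towards the iPS line. Shh, the hedgehog ligand of notochord and floor plate, had levels of 8.69, 6.29 and 8.20 in iPS EB, against 4.22, 4.12 and 4.14 in iPS cells, at least 8.42-fold higher, while it was at least 1.41-fold higher in ES EB than in ES cells (limma's test of the difference, adjusted p = 0.013). Mesp1 averaged 6.38 in iPS EB and 4.30 in ES EB (adjusted p of the difference of change in limma = 0.00074). Foxd4, a forkhead factor of early neural tissue, averaged 6.72 in iPS EB and was detected on 1 of 3 ES EB arrays. Shh, Mesp1 and Foxd4 were detected on no iPS and no ES array, so their differences of change are called but have no exact size. Cpm, a membrane carboxypeptidase detected in all 4 groups, changed by 2.76 in the iPS line and -0.30 in the ES line.

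Among the 6 lowest called differences, the change in the ES line was the higher one. Lyz1, a lysozyme of gut and macrophages, changed by -1.69 in the iPS line and 4.91 in the ES line, with mean levels of 5.56 ± 1.05 in iPS EB and 7.25 ± 0.97 in iPS cells (SD, n = 3 each). Lyz1 was also bright on the fibroblast arrays (14.1), where all 12 tested leukocyte genes were detected. Ctsj, a cathepsin of trophoblast and placenta, stayed near background in the iPS line (4.33 ± 0.32 in iPS EB and 4.18 ± 0.03 in iPS cells) and was at least 25.4-fold higher in ES EB than in ES cells. Cryba1, a lens crystallin, was at least 1.61-fold higher in iPS EB than in iPS cells, and changed by 6.04 in the ES line. Zscan4c, one of a cluster of near-identical genes of the early embryo whose probes may cross-hybridise, changed by -1.91 in the iPS line and 2.72 in the ES line.

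**Figure D5:**
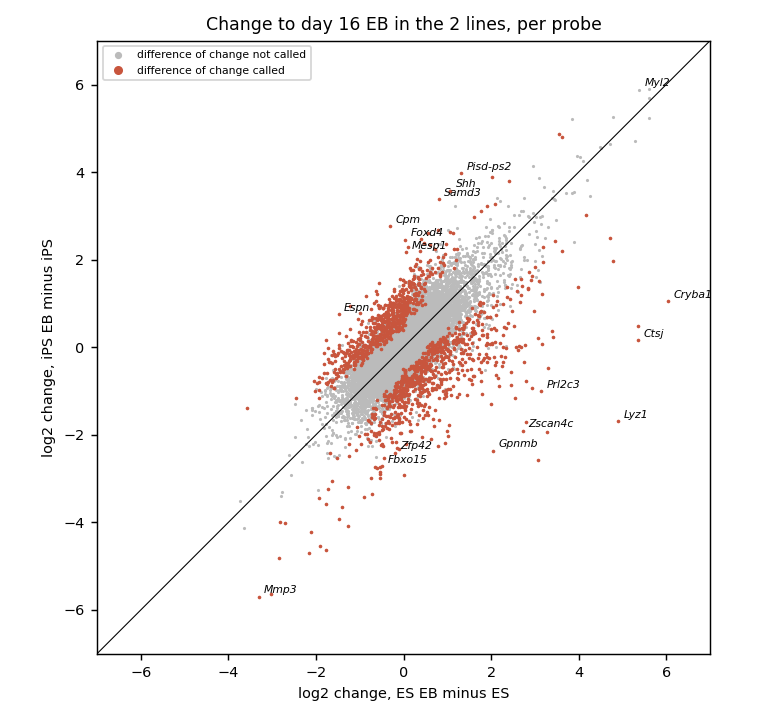
Log2 change per tested probe from undifferentiated cells to day 16 EB in the iPS line (y axis) and the ES line (x axis), with equal changes on the diagonal. Probes with a called difference of change are coloured; Myl2 lies near the diagonal, Cpm, Shh and Mesp1 above it, and Lyz1, Ctsj and Cryba1 far below it.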

How the data were processed

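Expression was measured on Illumina mouse bead arrays, 1 array per sample. Per the file headers, the deposited values are the mean bead intensity of each of 45281 probes and its detection p-value, without normalization; a second table holds the authors' normalized intensity and was used only as an alternative. The probe identifiers of the 2 tables disagree. Over 508 pairs of probes for 1 gene, the median correlation was 0.985 with the identifiers of the first table and 0.0534 with those of the second, so the first were used, joined to the platform annotation (34885 probes with 1 symbol, 18 with several, 10378 with none).

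Computed here with limma 3.58.1 in R 4.3.3: normexp background correction from the detection p-values (offset 16), quantile normalization and log2. Probes detected at p under 0.01 on at least 3 of 21 arrays were tested (21047). A mean was fitted for each of 7 groups over 19 samples, with the 3 fibroblast arrays, technical replicates per the series' design text, averaged. Benjamini-Hochberg adjustment ran over all tested probes. A fold called "at least" sets the bright group against the higher, on each array, of the dimmest detected signal and the probe's own.

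A gene is represented by its brightest probe; of 4424 genes with several tested probes, 68 had probes called in opposite directions. Named genes are the 12 highest and 12 lowest changes without overlap, the 6 highest and 6 lowest differences between the lines, up to 4 called members per list, and 5 reprogramming and pluripotency factors. Tnni3, Pecam1, Hbb-bh1 and Ptprc were picked from their lists outside these rules. Other names are stated as such or are given as lists of members. The comparison, the 22 lists and the tests were chosen with earlier results of these data known. The fit, tested on simulated data for iPS EB against iPS over 21047 probes, called 18% of changes of 0.5, 76% of 1 and 100% of 2 log2 units, with 7 false among 154 calls. The simulation changed 50 probes at each of these sizes and at 4 log2 units, far fewer than were called in the data. Its rates thus do not give the power of the real comparison. Promoters are from RefSeq. The alternatives are scaling, background, filter, samples in the fit, replicate blocks, the variance prior and leaving out each replicate.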

Additional observations from a re-analysis of the deposited data

Results flagged for a closer look

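The change from undifferentiated cells to EB differed between the iPS and ES lines for 1442 probes by limma's test of the difference itself. The values below are log2 differences of change, the iPS line minus the ES line, for the named genes in which that test passed. Where a gene was detected on no array of a group, the value is taken against background and is not an exact size. That holds for Shh, Samd3, Foxd4, Ctsj, Cryba1, Prl2c3, Mmp3, Cxcl1, Ccl7, Mmp13, Inhba, Mesp1, Emcn, Thbd, Hoxa7, Taf7l and Tex11 within the iPS line, and for Lyz2, Cer1, Foxa1, Lum and Hoxb7 in ES cells. The values share the 12 arrays of both lines, and 3 samples per group limit them.

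Among the genes with the largest called differences, the values were 3.06 for Cpm, 2.65 for Pisd-ps2, 2.58 for Samd3, 2.50 for Shh, 2.40 for Foxd4 and 2.23 for Espn towards the iPS line. Towards the ES line they were -6.60 for Lyz1, -5.21 for Ctsj, -4.99 for Cryba1, -4.62 for Zscan4c, -4.41 for Gpnmb and -4.15 for Prl2c3. Mean levels of Gpnmb, a glycoprotein of macrophages and melanocytes, were 4.66 in iPS EB and 7.03 in iPS cells. The calls for Shh and Espn were lost with median scaling.

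Of the genes with the largest changes in the iPS line, Dlk1 differed by 1.19. The genes of secreted proteins that were lower in iPS EB differed by -2.39 for Mmp3, -1.97 for Cxcl1, -2.45 for Ccl7, -1.81 for Mmp13, -2.81 for Fbln2 and -2.62 for Inhba. In the same set the values were -2.87 for Usp26, -1.32 for Krt42, -1.52 for Rgcc and -2.53 for Tex19.1.

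Of the pluripotency genes, the differences were -2.24 for Fbxo15, -2.22 for Zfp42, -1.30 for Dppa4, -1.63 for Dppa2 and 0.85 for Tdgf1. Over all 11501 genes, a difference was called for 426 towards the iPS line and 491 towards the ES line. It was called for 2 of 11 streak genes and 3 of 19 endoderm genes, all towards the iPS line. Among them were 2.10 for Mesp1, 1.17 for Eomes, 1.67 for Cer1 and 1.33 for Foxa1. Of 6 germ cell genes that passed the filter, 5 differed towards the ES line, among them -1.79 for Rhox5, -2.14 for Taf7l and -1.44 for Tex11.

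Of 15 endothelial genes, 2 differed towards the iPS line and 4 towards the ES line, against 426 and 491 of all 11501 genes. Named vascular, blood and muscle genes had -0.89 for Emcn, -2.23 for Esam, -1.19 for Thbd, -1.39 for Laptm5, -3.77 for Lyz2 and -2.73 for Mylpf. Epithelial, matrix and Hox genes had -1.24 for Krt17, -1.99 for Sfn, -2.82 for Lum, -2.81 for Col1a1, -0.93 for Hoxa7 and -1.96 for Hoxb7. The remaining genes were cell cycle, chromatin and signalling members, with -1.54 for Mcm2, -1.15 for Ezh2, -2.36 for Grem1 and 1.02 for Sfrp1.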

How the results depend on the processing

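Of 126 named gene results, 99 kept their direction and their side of the threshold under every alternative run, and no value changed sign past it. The call was lost for 57 gene values and gained for 3. Of these losses and gains together, 21 came under median scaling. Scaling mattered most: with median scaling 4701 probes were higher and 667 lower, with changes of 2-fold or more for 2470 upward and 283 downward, and the difference between the lines had 256 calls (81 higher, 175 lower). With the other groups left out of the fit it had 684 calls (280 higher, 404 lower). Leaving out each replicate in turn gave 6246 to 7650 calls for iPS EB against iPS (3176 to 3860 higher, 3062 to 3790 lower), of which 1963 to 2564 were at least 2-fold (1135 to 1473 higher, 828 to 1091 lower). For the difference between the lines it gave 906 to 2124 calls (347 to 998 higher, 559 to 1126 lower), with 998 higher without ES EB replicate 1, 347 without ES EB replicate 2, 387 without ES EB replicate 3 and 419 without iPS replicate 2. The causes were not tested. At a detection p under 0.05, 955 probes were detected in iPS EB alone and 223 in iPS cells alone. Among list counts, 390 stayed within 1.5 times and 50 did not; leaving out replicates was added for the lists after seeing the data. Same-numbered iPS EB and iPS samples share a passage, but their deviations from the group means correlated at -0.0186, 0.114 and -0.177, against -0.199 to 0.224 for differently numbered ones, which does not show the numbers to pair the samples beyond the passage; with the replicate block 7908 probes were called (3964 higher, 3944 lower), 2116 of them at least 2-fold (1222 higher, 894 lower), and the difference between the lines had 1395 calls (639 higher, 756 lower). The offset and the 3 arrays per group limit what can be seen among dim probes.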

Other observations

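Epithelial genes gave mixed counts, with 2 of 13 simple epithelium genes (15.4%) higher and 3 (23.1%) lower in iPS EB. Of 5 squamous genes, 2 (40%) were higher and 2 (40%) lower. Over all genes 21.6% were higher and 19.5% lower. Krt8 and Krt18, the paired keratins of simple epithelia, were higher in iPS EB (2.29 ± 0.43 and 2.17 ± 0.41, SE), with Krt8 at 10.46, 10.55 and 10.90 in iPS EB, against 8.57, 8.19 and 8.29 in iPS cells. Cldn4, a claudin of tight junctions, was lower (-1.24 ± 0.15, call lost with median scaling). Of the squamous genes, Krt14, of basal epidermis, was higher (2.90 ± 0.34), while Krt17 (-2.22 ± 0.24) and Sfn, the 14-3-3σ protein (-2.17 ± 0.14), were lower.

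Of 17 Hox genes tested, 3 (17.6%) were higher and 2 (11.8%) lower in iPS EB, no more than the 21.6% and 19.5% of all genes. Another 21 did not pass the filter. Hoxb2 and Hoxb4, undetected in iPS cells, were at least 2.18-fold and 2.07-fold higher. Hoxa7, undetected in iPS EB, was at least 1.41-fold lower, and Hoxb7 was lower (-0.72 ± 0.20, call lost with median scaling). Among signalling genes 11 of 23 (47.8%) were higher and 2 (8.7%) lower. Sfrp1, a secreted Wnt inhibitor, had levels of 9.26, 9.87 and 9.41 in iPS EB, against 7.30, 7.26 and 7.25 in iPS cells. Grem1, a secreted BMP antagonist, had levels of 4.19, 4.22 and 4.70 in iPS EB, against 7.50, 7.07 and 7.26 in iPS cells, a change of -2.90 ± 0.16.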
